A study of Mus musculus with 2 samples.

Results

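The genes of the mitochondrial ribosomal proteins are the subject of this account. They were taken from a table of 52636 genes as the protein-coding genes whose name begins with Mrpl or Mrps and a digit, which gave 78 genes, 49 of the large subunit (Mrpl) and 29 of the small subunit (Mrps). RNA-seq compared a pair of stably infected Hepa1-6 lines, cells of a mouse liver cancer whose strain the labels give as C57bl/6. The IRF8 line had received a lentivirus for overexpression of IRF8, a transcription factor of the interferon regulatory factor family, and the vector line the vector control virus. Both viruses carried GFP and puromycin resistance, infection lasted 24 h, and both lines were selected with 2 µg/ml puromycin. Each line gave 1 library, with 20042660 counted reads in the IRF8 line and 18118017 in the vector line, so differences could not be set against replicates, no test was made, and the intervals given reflect counting error alone.

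Mitochondria build their own ribosomes to translate the few proteins encoded by mitochondrial DNA, all of them membrane subunits of the respiratory chain and the ATP synthase. The ribosomal RNAs come from mitochondrial DNA, while every ribosomal protein is encoded in the nucleus, made in the cytosol and imported. Some of these proteins descend from those of bacterial ribosomes and others exist only in mitochondria. In liver and in liver tumour cells, as in other tissues, they are needed for respiration.

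As a check of the labels, Irf8 had 1486 counts in the IRF8 line and 1010 in the vector line, a ratio of 1.22 (95% interval 1.13 to 1.32), short of the 2-fold used as the limit of size below. An interval above 1 was also found for 31.1% of all measured genes, so these counts alone do not establish the overexpression. Nor do they tell transcripts of the virus from those of the cell's own gene. Of the 8 hepatocyte markers examined, 5 were measured, and Alb, Afp, Apoe and Hnf4a each had at least 1571 counts in each library. The others, Apoa1, Serpina1a and Ttr, had at most 15 counts in either library. The summed hepatocyte markers stood at 3292 CPM (counts per 1000000 of the scaled library size) in the IRF8 line and 5561 CPM in the vector line. Most of this was Apoe, at 2901 and 4740 CPM. All 5 measured markers had a ratio below 1, IRF8 line over vector line. Alb (0.376), Trf (0.455) and Afp (0.468) were lower by 2-fold, as were 3.64% of all measured genes. Hnf4a (0.542) and Apoe (0.612) fell short of it. Apoa1 and Serpina1a, at few counts, went the other way. Summed myeloid markers were at 19.6 and 24.2 CPM in the IRF8 and vector lines, with Adgre1 at 0 in both and Ptprc at 5 and 7 counts. Endothelial markers summed to 1.53 CPM in the IRF8 line and 3.57 in the vector line, and stellate or fibroblast markers to 907 and 801 CPM, nearly all of it Dcn. Cholangiocyte markers summed to 99.3 CPM in the IRF8 line and 268 in the vector line, mostly Sox9. The other measured markers of that list went the other way. Krt7 had 112 counts in the IRF8 line and 54 in the vector line (ratio 1.72, 1.23 to 2.43). Epcam had 176 and 121 (1.21), with an interval that included 1. Krt19 had 1 and 6 counts. Whether these differences bear on the mitoribosomal genes was not tested.

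The mitoribosomal protein genes differed little between the lines. A mean of at least 1 CPM was required for a gene to be measured, which 77 of the 78 members and 12468 genes of the whole table met. None of the 77 reached a 2-fold difference in either direction, where 4.27% of all measured genes were higher in the IRF8 line and 3.64% were lower by that rule, which also asks that the exact 95% counting interval of the ratio exclude 1. At 1.5-fold, 0 members were higher and 2 were lower, Mrps6 and Mrpl27, against 10.4% and 9.42% of all measured genes. With a milder limit, 2 members were at least 25% higher, Mrps22 and Mrpl55, and 9 were at least 20% lower, against 19.7% and 19.2% of all measured genes. The ratios of all members ran only from 0.565 to 1.38, IRF8 line over vector line. Of the members, 85.7% lay within these milder limits, as did 55.8% of all measured genes.

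The members are well-expressed genes, and highly expressed genes have narrower counting error. They spanned 13.9 to 196 CPM as a mean of both libraries. Among the 7439 other measured genes in that same CPM range, 63.2% lay within the milder limits, and the standard deviation of the log2 ratio was 0.45, compared with 0.22 over the members and 0.61 over all measured genes. Comparable nuclear-encoded groups had standard deviations between those of the members and of the genes in the same CPM range. Cytosolic ribosomal proteins (91 measured of 97) had a standard deviation of 0.31 and nuclear respiratory chain and ATP synthase subunits (76 measured of 82) one of 0.28. Within the milder limits lay 76.9% of the cytosolic ribosomal proteins and 84.2% of the respiratory chain group, close to the 85.7% of the members. The interquartile ranges of the log2 ratio were 0.26 and 0.29 in these groups and 0.25 over the members. The narrow spread was therefore not particular to the members.

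**Figure D1:**
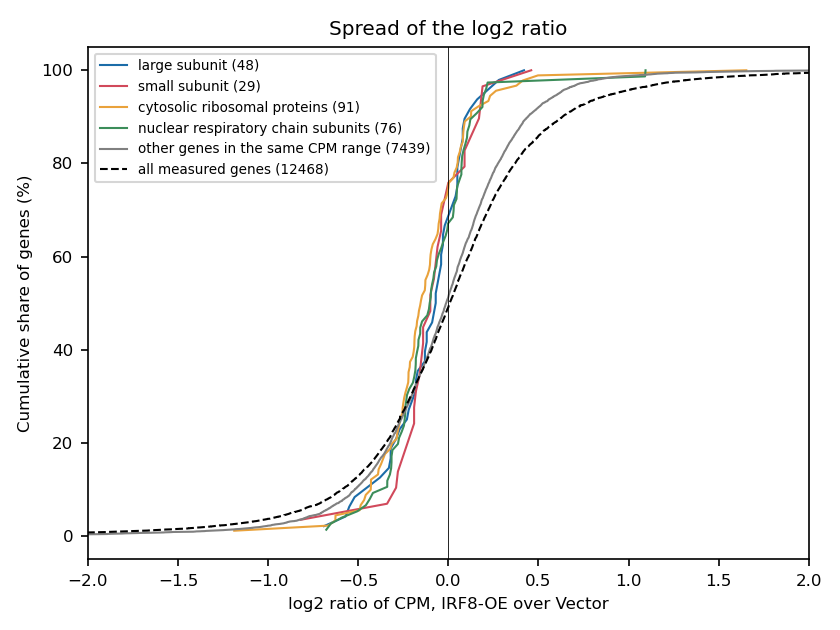
Cumulative share of genes (%) by log2 ratio of CPM, IRF8 line over vector line, for the members of each subunit, the related gene groups, other genes of the same CPM range and all measured genes. The curves of both subunits rise steeply close to 0, and all members lie between -0.82 and 0.46. Values beyond the axis are not drawn.

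The centre of the group lay slightly below that of the transcriptome. The median log2 ratio of the 77 members was -0.08, and 0.01 for all measured genes. With libraries scaled by total counts both medians moved up by about the same amount and the median of the members turned positive (0.04), while the distance between members and all genes stayed at -0.09 under both scalings. The ratio was below 1 for 53 members and above 1 for 24, where 49.1% of all measured genes were below and 50.9% above, and with total counts it was below 1 for 33 members and above 1 for 44, against 37.4% and 62.6% of all measured genes. The counting interval lay below 1 for 28 members, against 32.7% of all measured genes, and above 1 for 8, against 31.1%, and it included 1 for 41. With total counts this split turned round, to 16 members below 1 and 22 above, against 23.4% and 43.3% of all measured genes. Genes of 10 to 100 CPM, the range of 69 members, had a median of 0.02, where those members had -0.08. The 8 members over 100 CPM had a median of -0.09, and all 2499 genes at that level one of -0.12. The cytosolic ribosomal proteins and the respiratory chain subunits had medians of -0.15 and -0.10.

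Taken as a sum, the members held 94895 counts in the IRF8 line and 85174 in the vector line. That equals 0.473% of the counted reads of the IRF8 library (exact binomial 95% interval 0.470 to 0.476) and 0.470% of the vector library (0.467 to 0.473). After scaling, the sums were 4538 CPM in the IRF8 line and 4905 CPM in the vector line, a ratio of 0.925 (0.917 to 0.934). In a bulk sample, fewer cells with a transcript and less of it per cell cannot be told apart.

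**Figure D2:**
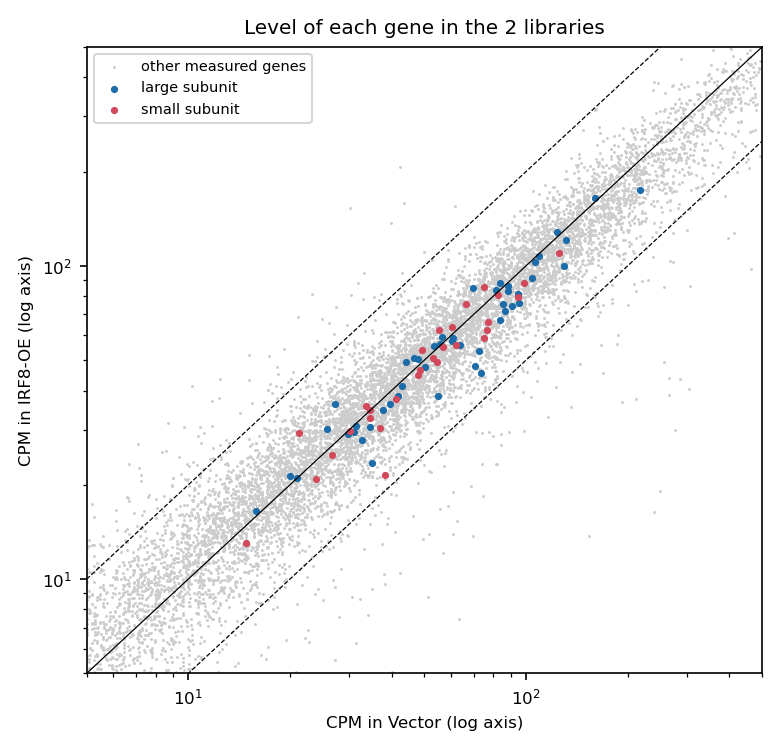
CPM of each gene in the IRF8 line (vertical, log axis) against the vector line (horizontal, log axis), members in colour by subunit and other measured genes in grey. The solid line marks equal levels and the dashed lines 2-fold differences, and all 77 members lie between the dashed lines.

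Large and small subunit genes had nearly the same centre. The median log2 ratio was -0.07 for the 48 measured large subunit genes and -0.10 for the 29 small subunit genes, a difference of 0.03. Their quartiles were -0.22 to 0.05 for the large subunit and -0.19 to 0.00 for the small subunit, so the distributions overlap over most of their range. Summed CPM gave a ratio of 0.918 (0.908 to 0.928) for the large subunit and 0.940 (0.925 to 0.956) for the small subunit. Counts of the large subunit were 2.03 times those of the small subunit in the IRF8 line and 2.08 times in the vector line. By gene name, Mrps30 and Mrps18a belong to the small subunit, but in the structure of the mammalian ribosome both sit in the large one. With these moved, the medians were -0.06 for 50 large and -0.10 for 27 small subunit genes. With 1 library per line the difference between subunits was not testable, and genes are not replicates of a line.

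**Figure D3:**
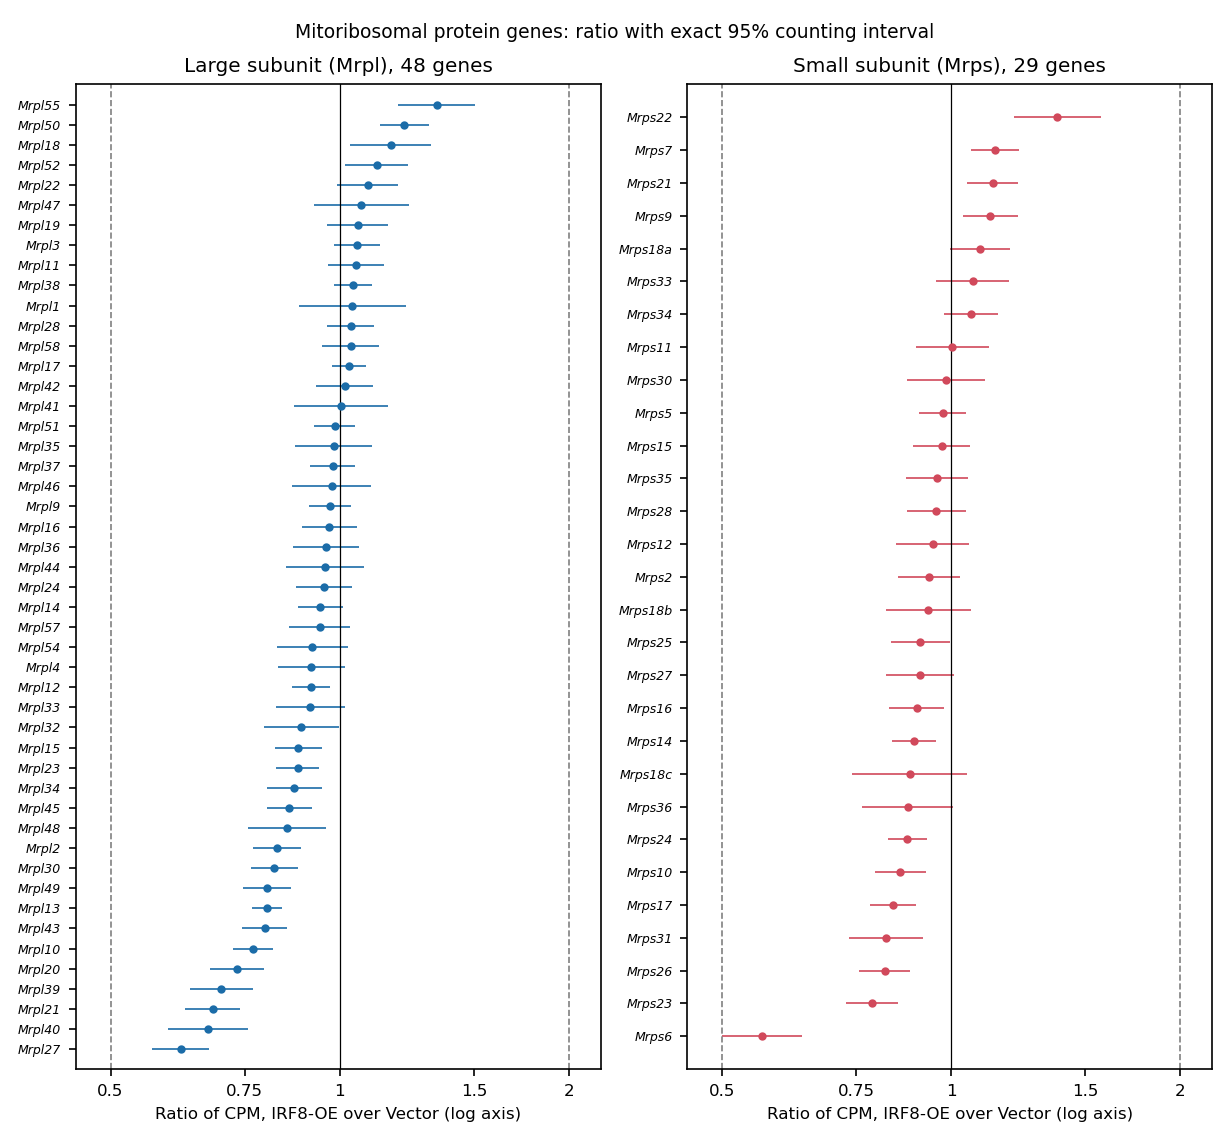
Ratio of CPM, IRF8 line over vector line (log axis), of each measured member with its exact 95% counting interval, large subunit on the left and small subunit on the right. Dashed lines mark 2-fold, which no point reaches. The lowest points are Mrps6 (0.565) and Mrpl27 (0.618) and the highest Mrps22 (1.38) and Mrpl55 (1.34).

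Promoter sequence was available for 69 members from RefSeq (build GRCm38.p6), 250 bases before to 50 after the annotated start. The stretches shown are those of the members with the highest ratio in each subunit and the lowest of all, with a further pair that illustrates the motifs common in this gene family. Each ends just before the first annotated start and is 150 bases long, or 115 for Mrpl43, where it stops at the annotated start of Twnk on the opposite strand. Capitals mark matches on either strand to CCGGAAG, the core bound by ETS factors such as GABP, or to GCGCANGCG, a core of the NRF1 site.
Mrps22 (chr9:98601680-98601829, minus strand): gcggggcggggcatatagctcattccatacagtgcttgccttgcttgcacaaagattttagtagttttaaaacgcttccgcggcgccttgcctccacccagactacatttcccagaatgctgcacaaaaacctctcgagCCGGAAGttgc
Mrpl55 (chr11:59202336-59202485, plus strand): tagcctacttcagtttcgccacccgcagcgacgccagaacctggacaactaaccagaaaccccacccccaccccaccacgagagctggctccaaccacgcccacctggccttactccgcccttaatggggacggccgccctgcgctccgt
Mrps6 (chr16:92058120-92058269, plus strand): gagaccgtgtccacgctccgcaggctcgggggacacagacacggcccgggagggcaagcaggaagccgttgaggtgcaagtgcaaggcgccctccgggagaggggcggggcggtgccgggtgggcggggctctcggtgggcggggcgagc
Mrpl43 (chr19:45006443-45006557, minus strand): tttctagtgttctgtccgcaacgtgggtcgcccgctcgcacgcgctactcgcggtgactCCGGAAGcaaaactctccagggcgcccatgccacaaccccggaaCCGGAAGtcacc
Mrpl17 (chr7:105811100-105811249, minus strand): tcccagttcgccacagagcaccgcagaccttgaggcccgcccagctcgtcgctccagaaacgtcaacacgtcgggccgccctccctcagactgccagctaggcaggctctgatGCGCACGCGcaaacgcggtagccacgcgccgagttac

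The ETS core occurred in the promoters of 26 of the 69 members (37.7%), and in 12.9% of 17491 protein-coding genes with a promoter in the same table. The NRF1 core occurred in 16 members (23.2%) and in 9.63% of protein-coding genes. The core AANATGGCG of the YY1 site, whose last 3 letters open the NRF1 core so that matches can overlap there, was present in 11 members (15.9%) and in 3.64%. At least 1 of the 3 was found in 43 members. The medians lay close together with and without each motif. Members with the ETS core had a median log2 ratio of -0.09 (25 measured) and those without it -0.07 (43 measured), and the medians were -0.09 and -0.06 with and without the NRF1 core and -0.03 and -0.10 with and without the YY1 core. Both ends of the range show each state. Mrps22, the highest, and Mrpl27, the lowest of the large subunit, hold an ETS core in their windows, and Mrpl55 and Mrps6 hold none of the 3 cores in their whole windows. A match is only a match of letters and does not show binding.

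The genes for the factors known to bind these cores were also measured. Nrf1 had 949 counts in the IRF8 line and 767 in the vector line (ratio 1.03, 0.933 to 1.13). Gabpa, the DNA-binding subunit of GABP, had 939 and 1025 counts in the IRF8 and vector lines (0.761, 0.696 to 0.832), and Yy1 had 1970 and 2023 (0.809, 0.760 to 0.861). Gabpa lies on chromosome 16, whose measured protein-coding genes other than members had a median log2 ratio of -0.34. The log2 ratio of Gabpa, -0.39, was close to that median. Across the list of mitochondrial transcription genes and nuclear regulators of mitochondrial biogenesis, all 15 were measured, 0 were higher by 2-fold and 1 was lower, against 4.27% and 3.64% of all measured genes, and the median log2 ratio was -0.24. The lower gene was Myc, a broad activator of ribosome and mitochondrial genes, with 4677 counts in the IRF8 line and 8537 in the vector line (ratio 0.455, 0.439 to 0.472). Myc lies on chromosome 15, whose median was -0.31, and had a log2 ratio of -1.14. The coactivator genes Ppargc1a and Ppargc1b drive mitochondrial biogenesis. Ppargc1a had 156 counts in the IRF8 line and 205 in the vector line (ratio 0.632, 0.510 to 0.782). Ppargc1b had 69 and 88 (0.651, 0.468 to 0.903). The nuclear receptor gene Esrra stood at 0.638 (0.600 to 0.677). Pprc1, on the same list, had 2148 and 1888 counts in the IRF8 and vector lines (0.945, 0.888 to 1.01). Intervals also included 1 for Gabpb1 (0.944), Gabpb2 (1.02), Twnk (0.948) and Tefm (0.981). Of the 15, the interval lay below 1 for 9, against 32.7% of all measured genes, and included 1 for 6. Tfam, which packages mitochondrial DNA, stood at 0.865 (0.802 to 0.932) and Polrmt, the mitochondrial RNA polymerase, at 0.846 (0.769 to 0.931).

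Within the large subunit, proteins of the stalks gave mixed values. Mrpl12, the stalk protein that contacts elongation factors, had 2523 counts in the IRF8 line and 2288 in the vector line (ratio 0.916, 0.865 to 0.969). Mrpl10, which anchors Mrpl12, had 2086 counts in the IRF8 line and 2250 in the vector line and was lower, at 0.770 (0.725 to 0.818). Mrpl11 at the stalk base had 1240 and 981 counts in the IRF8 and vector lines (1.05, 0.965 to 1.14), and Mrpl1, of the stalk on the tRNA exit side, 345 and 276 (1.04, 0.884 to 1.22). The intervals of Mrpl11 and Mrpl1 included 1, and that of Mrpl10 lay wholly below those of the other stalk genes.

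Genes for the catalytic core and the exit tunnel were all between 20% lower and 25% higher in the IRF8 line. Of the proteins that line the peptidyl transferase region, Mrpl2 had a ratio of 0.827 (0.769 to 0.888), Mrpl3 one of 1.05 (0.984 to 1.13) and Mrpl16 one of 0.968 (0.891 to 1.05). At the tunnel exit, where nascent proteins enter the inner membrane, Mrpl22 stood at 1.09, Mrpl24 at 0.953, Mrpl47 at 1.07, Mrpl23 at 0.880 and Mrpl45, which attaches the ribosome to the membrane, at 0.858. The intervals of Mrpl23 (0.825 to 0.939) and Mrpl45 (0.802 to 0.919) lay below 1 and those of the other tunnel genes included 1. Mrpl58, a peptidyl-tRNA hydrolase that frees stalled ribosomes, had 1157 counts in the IRF8 line and 930 in the vector line (1.03, 0.947 to 1.13). Mrpl44, a protein with an RNase III fold, had 618 counts in the IRF8 line and 537 in the vector line (0.956, 0.850 to 1.07).

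The central protuberance, the part of the large subunit that faces the tRNAs and the small subunit, showed the widest spread of the role groups examined, with a standard deviation of 0.36 on the log2 scale over 6 genes, compared with 0.16 to 0.21 for the other role groups of 3 to 5 genes. Of its genes, only Mrpl38, Mrpl46 and Mrpl48 were in the fixed set with known roles. Mrpl27, Mrpl40 and Mrpl18, which set the width, were named for their low or high ratios, so this spread is not independent of that choice. Mrpl27 (ENSMUSG00000024414) occupies bases 94653767 to 94660089 of mm10 chromosome 11, on the plus strand. Mrpl27 had 951 counts in the IRF8 line and 1278 in the vector line. This makes 45.5 CPM in the IRF8 line (95% Poisson limits, exact, 42.6 and 48.5) and 73.6 CPM in the vector line (69.6 and 77.7), a ratio of 0.618 (0.568 to 0.673). Mrpl40, in the same structure, had 492 counts in the IRF8 line and 608 in the vector line (0.672, 0.595 to 0.758). Mrpl18, which in bacteria binds the 5S RNA that the mammalian mitochondrial ribosome lacks, was on the other side of 1, with 629 counts in the IRF8 line and 448 in the vector line (1.17, 1.03 to 1.32). Mrpl38 (1.04), Mrpl46 (0.975) and Mrpl48 (0.852) lay between these.

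Mrpl55 led the large subunit on the higher side. It lies on mm10 chromosome 11 from 59202486 to 59206134 (ENSMUSG00000036860, plus strand) and had 760 counts in the IRF8 line and 471 in the vector line, or 36.3 CPM (33.8 to 39.0) and 27.1 CPM (24.7 to 29.7), a ratio of 1.34 (1.19 to 1.51). Mrpl50, a protein found only in mitochondrial ribosomes, had 1776 counts in the IRF8 line and 1213 in the vector line (1.22, 1.13 to 1.31), and Mrpl52 had 1034 and 768 (1.12, 1.02 to 1.23). On the lower side stood Mrpl21, with 1005 counts in the IRF8 line and 1226 in the vector line (0.681, 0.626 to 0.741), Mrpl39 (0.699, 0.636 to 0.769) and Mrpl20, with 1116 and 1264 counts in the IRF8 and vector lines (0.733, 0.676 to 0.795). Mrpl20 and Mrpl21 have counterparts in bacterial ribosomes.

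In the small subunit the ends of the range were Mrps6 and Mrps22. Mrps6, a protein of the platform with a bacterial counterpart, lies on mm10 chromosome 16 from 92058270 to 92112227 (ENSMUSG00000039680, plus strand). It had 450 counts in the IRF8 line and 662 in the vector line, or 21.5 CPM (19.6 to 23.6) and 38.1 CPM (35.3 to 41.1), a ratio of 0.565 (0.500 to 0.637), the lowest of all members. Its span contains that of the inositol transporter gene Slc5a3 on the same strand. The span of Gm16310 also overlaps it on that strand. Exons of other genes on that strand cover 19.9% of its exonic bases in GENCODE M21, and Slc5a3 had 135 counts in each library. Mrps22, a mitochondrion-specific protein whose loss in patients impairs mitochondrial translation, lies on chromosome 9 from 98588730 to 98601660 (ENSMUSG00000032459, minus strand). It had 614 counts in the IRF8 line and 370 in the vector line, or 29.4 CPM (27.1 to 31.8) and 21.3 CPM (19.2 to 23.6), and its ratio of 1.38 (1.21 to 1.57) was the highest of all members.

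Other small subunit genes were closer to 1. Mrps7, Mrps21 and Mrps9 had ratios of 1.14 (1.06 to 1.23), 1.13 (1.05 to 1.22) and 1.13 (1.03 to 1.22). With Mrps22 they were the 4 of 29 whose interval lay above 1, against 31.1% of all measured genes. Mrps12, which reads codon and anticodon pairing in the decoding centre, had 684 counts in the IRF8 line and 601 in the vector line (0.945, 0.846 to 1.06). The proteins at the mRNA entry, Mrps5 and Mrps24, stood at 0.974 (0.908 to 1.05) and 0.876 (0.825 to 0.929), and Mrps2 at 0.935 (0.851 to 1.03). Mrps34 and Mrps16, needed for a stable small subunit in humans, had ratios of 1.06 (0.978 to 1.15) and 0.901 (0.828 to 0.979), and Mrps27, an RNA-binding repeat protein, had 0.909 (0.821 to 1.01). On the lower side, Mrps23 had 1233 counts in the IRF8 line and 1300 in the vector line (0.788, 0.728 to 0.852), Mrps26 a ratio of 0.818 (0.757 to 0.884) and Mrps31 one of 0.821 (0.735 to 0.918), followed by Mrps17 at 0.838 and Mrps10 at 0.858. The intervals of 10 of the 29 small subunit genes lay below 1, against 32.7% of all measured genes. The 3 relatives of bacterial S18 had ratios whose intervals all included 1, Mrps18a at 1.09 (0.997 to 1.19), Mrps18b at 0.933 (0.821 to 1.06) and Mrps18c at 0.882 (0.741 to 1.05). Mrps36 is counted here by its name, although its product is known as a subunit of the 2-oxoglutarate dehydrogenase complex, and had a ratio of 0.876 (0.765 to 1.00).

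Proteins inherited from bacteria and proteins specific to mitochondria had similar values. The median log2 ratio was -0.08 for 46 genes with a bacterial counterpart and -0.07 for 31 measured mitochondrion-specific genes, with standard deviations of 0.23 and 0.22. The mitochondrion-specific class here includes Mrps18a and Mrps18b, although they are relatives of bacterial S18. It also includes Mrps36, the dehydrogenase subunit counted by its name. Split further by structural subunit, the medians were -0.08 for 30 conserved and -0.03 for 20 specific genes of the large subunit, and -0.09 for 16 conserved and -0.14 for 11 specific genes of the small subunit.

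Members on chromosome 16 were the lowest as a group. All 3, Mrps6, Mrpl40 and Mrpl39, were among the 5 lowest ratios of the 77 members. Together they had 1745 counts in the IRF8 line and 2224 in the vector line, a ratio of summed CPM of 0.652 (0.612 to 0.694). The other 345 measured protein-coding genes of chromosome 16 had a median log2 ratio of -0.34, and 81.2% of them had a ratio below 1, compared with 50.2% of the measured protein-coding genes other than members over all chromosomes. Relative to that chromosome median the log2 ratios were -0.48 for Mrps6, -0.23 for Mrpl40 and -0.17 for Mrpl39. Without the chromosome 16 genes, the remaining 74 members had a median of -0.07. The single member on chromosome 15, Mrpl13, had the highest count of all members, with 3652 in the IRF8 line and 3782 in the vector line, and its log2 ratio of -0.32 was close to the chromosome's median of -0.31 over 457 other genes. Mrpl27, Mrpl21 and Mrpl20 were low on chromosomes 11, 19 and 4, whose medians were 0.13, -0.12 and 0.02.

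**Figure D4:**
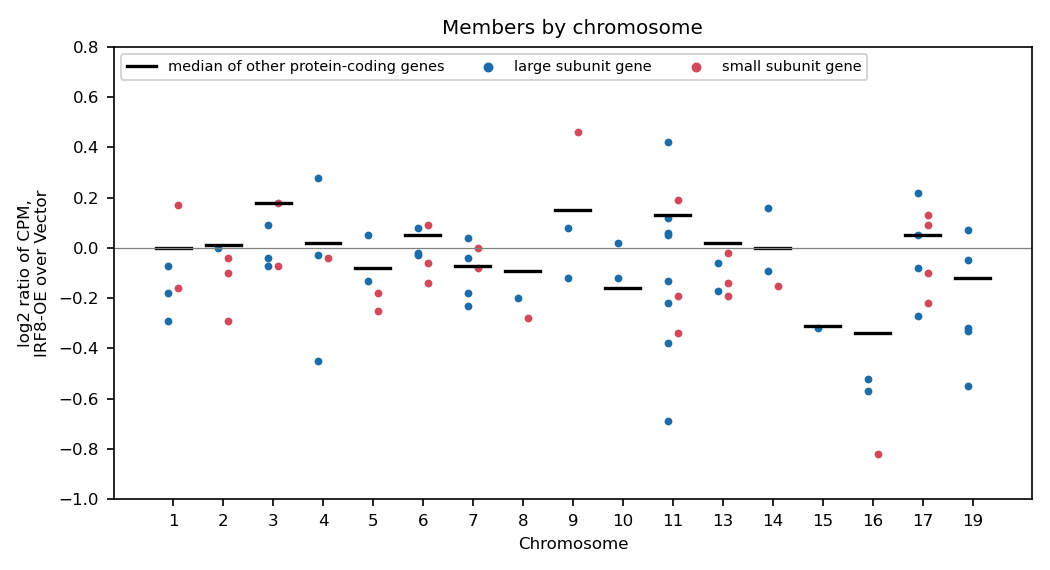
Log2 ratio of CPM, IRF8 line over vector line, of each measured member by chromosome, with the median of the other measured protein-coding genes of that chromosome as a bar. The 3 points of chromosome 16 lie between -0.82 and -0.52, under their chromosome's bar at -0.34, and Mrpl13 on chromosome 15 lies at its bar.

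Many members share a start region with another gene. A protein-coding gene on the opposite strand started within 1000 bases of 32 of the 78 members (41.0%), and of 17.2% of the 11131 measured protein-coding genes. In 28 pairs both genes were measured and the partner was no member. There the median log2 ratio was -0.09 for the members and 0.02 for the partners. Member and partner lay on the same side of 1 in 15 of the 28, and their log2 ratios differed by a median of 0.14. No partner reached 2-fold. Mrpl27 and its partner Eme1, a DNA repair nuclease subunit gene, differed most plainly, since Eme1 had 649 counts in the IRF8 line and 499 in the vector line (ratio 1.08, 0.960 to 1.22) where Mrpl27 had 0.618. Members of both subunits start head to head in a single case, Mrps11 on the plus and Mrpl46 on the minus strand of chromosome 7, whose spans in the table overlap and whose starts lie 412 bases apart. Mrps11 had 725 counts in the IRF8 line and 600 in the vector line (1.00, 0.899 to 1.12), and Mrpl46 had 606 and 516 (0.975, 0.866 to 1.10). Both intervals included 1.

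Levels were compared between genes per kilobase of the length that the table lists. The members ranged from 3.70 to 98.6 CPM per kilobase as a mean of both libraries, with medians of 25.2 for the large and 15.9 for the small subunit. Mrpl34 had 91.9 CPM per kilobase in the IRF8 line and 105 in the vector line, Mrpl14 87.7 and 93.0, and Mrpl12 78.8 and 86.0. In the small subunit Mrps21 (102 in the IRF8 line and 90.2 in the vector line), Mrps24 (74.8 and 85.4) and Mrps28 (64.9 and 67.9) led. As a mean of both lines, Mrpl48 and Mrpl1 were the lowest measured members of the large subunit, at 3.70 and 3.77, and Mrps30 and Mrps35 those of the small subunit, at 4.48 and 5.51. The order depends on the length used. Listed lengths ran from 607 to 8631 bases (median 2255), while the longest coding sequence in GENCODE M21 ran from 261 to 1326 bases (median 588). Per kilobase of coding sequence, Mrpl13 (367 CPM) and Mrpl17 (308 CPM) led the large subunit and Mrps21 (272 CPM) the small subunit, and Mrpl1 (16.1 CPM) and Mrps30 (22.5 CPM) were the lowest measured members of their subunits.

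The remaining member, Mrpl53, had 0 counts in both libraries, which allows up to 0.143 CPM in the IRF8 line and 0.173 CPM in the vector line by the limit of 3 counts. It lies on chromosome 6 from 83109040 to 83109939 on the plus strand, and 88.0% of its exonic bases in GENCODE M21 are also exons of another gene on that strand. The overlapping gene model Gm42688 had 10 counts in the IRF8 line and 9 in the vector line. Its 0 therefore says nothing on expression, since the sources used here do not say how reads in shared exons were counted. Other members carry a milder form of this limit. The span of 41 of the 78 overlaps another gene, and in 42 of 77 measured members over 5% of the 32-base words of the longest coding transcript also occur in a transcript of another gene, most in Mrps25 (74.6%), Mrpl23 (67.5%), Mrps18b (64.3%), Mrps34 (55.4%) and Mrpl27 (53.4%). The 37 members with no span overlap had a median log2 ratio of -0.08, and the 35 with at most 5% shared words one of -0.06. The high members Mrps22, Mrpl55 and Mrpl50 share no such words, and the 4 lowest ratios all belong to members over 5%, Mrps6 with 33.7% (most with the gene model Gm49711), Mrpl27, Mrpl40 with 5.77% and Mrpl21 with 24.6%. The next members on each side went the other way. Mrpl39 and Mrpl20, the next lowest, share 1.59% and 3.82%. Mrpl18, Mrps7 and Mrps21, the next highest, share 19.4%, 11.4% and 21.4%. What the shared words do to these ratios was not tested.

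The mitochondrial ribosomal RNAs mt-Rnr1 (12S) and mt-Rnr2 (16S) had ratios of 1.03 (0.971 to 1.08) and 1.17 (1.10 to 1.24). Of 5 ribosomal proteins that carry other names, none was 25% higher or 20% lower, with Ptcd3 highest (1887 counts in the IRF8 line and 1286 in the vector line, 1.22, 1.13 to 1.31), followed by Dap3 (1.05), Chchd1 (0.900), Gadd45gip1 (0.897) and Aurkaip1 (0.889).

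Among 17 translation factor genes, 16 were measured, and 0 were higher or lower by 2-fold. Their median log2 ratio was 0.10, where the ribosomal proteins had -0.08, and 13 of 16 had a ratio above 1, as did 50.9% of all measured genes. The counting interval lay above 1 for 7, against 31.1% of all measured genes, and below 1 for 1, against 32.7%. Gfm1, the elongation factor that moves the ribosome along the mRNA, had 1353 counts in the IRF8 line and 742 in the vector line (1.51, 1.38 to 1.66). Mtif2, which brings the initiator tRNA, had 635 and 373 counts in the IRF8 and vector lines (1.41, 1.24 to 1.61), and Mtfmt, which formylates that tRNA, 362 and 231 (1.30, 1.10 to 1.54). Tufm, the elongation factor that delivers tRNAs, stood at 1.06 (1.01 to 1.11). Below 1 were Mtif3 (0.877, 0.773 to 0.996), Tsfm (0.935, 0.860 to 1.02) and Mrrf (0.920, 0.796 to 1.06). Of the 29 genes of ribosome assembly and rRNA processing found, 28 were measured, with a median of -0.08, and 0 passed 2-fold in either direction. Their spread was wider than that of the ribosomal proteins, with a standard deviation of 0.37. At one end stood Mettl15, at low counts (27 in the IRF8 line and 43 in the vector line, 0.521, 0.310 to 0.863), Gtpbp6 (217 counts in the IRF8 line and 322 in the vector line, 0.560, 0.469 to 0.667) and Ngrn (0.666, 0.585 to 0.757), and at the other the rRNA methyltransferase genes Mrm2 (481 and 274 counts in the IRF8 and vector lines, a ratio of 1.46) and Nsun4 (1.36, 1.18 to 1.57).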

How the data were processed

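RNA-seq of 2 Hepa1-6 lines was analysed, with 1 library per line. The authors deposited raw counts, 1 whole number per gene and library. HISAT2 2.0.5, featureCounts 1.5.0-p3 and the build mm10 are named in the submitters' processing notes. The strand and multiple-match settings, like the annotation, are not given in the sources. TMM scaling (edgeR 4.0.16, R 4.3.3) gave factors of 1.04 for the IRF8 line and 0.958 for the vector line. CPM, ratios and lists were computed in Python 3.11.15 (scipy 1.17.1, numpy 2.4.6, statsmodels 0.14.6, pandas 2.3.3), and figures with matplotlib 3.10.9.

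No test across genes was run, as each group has 1 library. Ratios carry exact Clopper-Pearson 95% intervals on the share of the counts of both libraries, and levels carry exact Poisson intervals. They cover counting error only, and PCR copies are not independent molecules. A 0 was given the limit of 3 counts. The rule for size, 2-fold with an interval that excludes 1, was run on counts simulated with counting error alone. That run cannot show how the rule behaves under variation between libraries. Coordinates of 72 of the 78 members were the same in GENCODE M21, which was used for exons, coding lengths and 32-base words. A member's name sets its subunit.

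The members, lists and alternatives were chosen with earlier results of these data known. Named members, 52 in all, were those with the 6 highest and 6 lowest ratios in each subunit, the 3 highest and 2 lowest levels per kilobase, and a fixed set with known roles. Mrpl13, Mrpl17, Mrpl43, Mrpl53, Mrps11, Mrps25 and Mrps36 and the pathway genes under 2-fold were named after their values were seen. As alternatives, libraries were scaled by the upper quartile, by DESeq2 1.42.0 size factors or by total counts, and results were recomputed with no filter or 5 CPM, smaller folds, a stricter interval, log2(CPM + 1), removal of a trend on expression, other summaries and other member sets. Removal of chromosome medians, members with few shared words and the list without Mrps36 were added after seeing the data.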

Additional observations from a re-analysis of the deposited data

Results flagged for a closer look

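A processed pseudogene that is no member, Mrpl23-ps1, carried signal above its level in the vector line. It had 128 counts in the IRF8 line and 47 in the vector line, or 6.12 CPM and 2.71 CPM, a ratio of 2.26 (1.61 to 3.23), where the parent gene Mrpl23 had a ratio of 0.880 (0.825 to 0.939). Of the 32-base words of Mrpl23, 67.5% occur in transcripts of another gene, most of them in Mrpl23-ps1. Whether reads were exchanged between the 2 was not tested. The other 4 pseudogenes named after members had at most 18 counts in either library.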

How the results depend on the processing

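No paired analysis was possible because each group has 1 library. Scaling by total counts gave a median of 0.13 for all measured genes in place of 0.01. It turned the sign of the medians of all members (0.04 in place of -0.08), of the large subunit (0.06 in place of -0.07) and of the small subunit (0.03 in place of -0.10), while their difference and the distance to all measured genes stayed at 0.03 and -0.09. With it 22 intervals lay above 1 and 16 below, against 8 and 28. Under the other alternatives these medians stayed negative. The difference between large and small subunit was -0.02 with means and -0.03 with summed CPM in place of 0.03. Total counts took 35 of 61 named ratios out of their counting intervals, while DESeq2 size factors and the upper quartile took 0. With a fold of 1.5, 2 members were lower, and with the smallest fold tried 2 were higher and 9 lower, against 0 at 2-fold. With the stricter interval, 4 lay above 1 and 22 below. Among the 37 measured members with no span overlap 4 intervals lay above and 13 below 1, and among the 35 with at most 5% shared words 5 and 10, as fewer members were counted. Mrpl53, at 0 in both libraries, adds no ratio when the filter is dropped. Intervals as wide as those of Mrps18c (0.741 to 1.05) leave differences of that size undetectable at this depth.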
